A study of Mus musculus with 18 samples.

Results

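The 10 genes described here encode enzymes that cut the matrix around cells, together with proteins that hold those enzymes back, anchor them or bind to the same matrix. They are the matrix metalloproteinases Mmp9, Mmp12, Mmp13 and Mmp14, the membrane protease Adam8, the plasminogen activator Plau and its receptor Plaur, the inhibitors Timp1 and Timp2, and the matrix protein Thbs1. They were taken by gene name from the 55487 genes of the deposited tables, as a set that had already been seen to vary between these libraries. All 10 were found, 8 had enough counts to be tested among 15996 genes, and the other 2, Mmp14 and Timp1, did not. Because the set was chosen with its changes in view, the fold changes and adjusted p-values below describe it, and none of them is independent evidence for the choice.

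RNA was sequenced from BV2 cells, an immortalized line of mouse microglia, which are the resident macrophages of the brain. Libraries came from cells labelled NC and from cells labelled BAK1-KD, each as a control taken at 0 h without oxyhemoglobin and after 12 h and 24 h of oxyhemoglobin at a labelled dose of 10 mM, a unit that could not be checked here. Oxyhemoglobin is the oxygen-carrying protein that red cells release after a bleed around the brain. Each of the 6 groups held 3 libraries, 18 in all, and all groups share the BV2 background. Neither NC nor KD is written out in the labels, which give no account of how the KD cells were made or whether they are 1 clone. Nothing in them says that the 3 libraries of a group came from separate cultures, so a p-value here reflects variation among libraries that may be technical. Untreated cells were not sampled at the later times, and culture time and treatment therefore cannot be told apart. Bak1, the gene the KD label names, had 39 counts over the 9 KD libraries and 25 over the 9 NC libraries. It was thus not lower in the libraries labelled KD, and the lines are called by their labels throughout.

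Matrix metalloproteinases are zinc enzymes that are made as inactive precursors, and each cuts its own range of collagens, elastin and other matrix proteins. Urokinase, the product of Plau, sits on the receptor encoded by Plaur and turns plasminogen into plasmin, which cuts matrix and can activate metalloproteinase precursors, while the tissue inhibitors Timp1 and Timp2 bind the active enzymes. Microglia and other macrophages secrete several of these proteins when activated, and in the brain Mmp9 is best known for cutting the basement membrane of blood vessels.

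Library totals ran from 4361313 to 6008810 counts. All 11 markers of microglia and macrophages had counts, summing to 349 to 694.9 CPM (counts scaled to a common library total) in a library, against 4.59 to 17.6 for 8 neutrophil markers and 1.25 to 5.96 for 8 markers of fibroblasts and endothelium. Spi1 (27132 counts in all) and Ptprc (12784) made up most of the first sum, while the microglial genes P2ry12 (8 counts), Aif1 (43), Tyrobp (187) and Cx3cr1 (191) were low. The neutrophil gene Ltf, the fibroblast genes Col1a2, Lum and Dcn and the globin genes were at 0 in all 18 libraries. Other genes of these lists had counts, such as Mmp8 (451), itself a metalloproteinase, Camp (262), the endothelial gene Pecam1 (200) and the erythroid gene Alas2 (445). Several sums differed between groups. That of microglia and macrophages ran from 349 to 419.9 CPM in the NC controls, 477 to 536.9 at 12 h and 367 to 419.4 at 24 h, and in KD from 532.8 to 545.2, 567 to 694.9 and 474.6 to 517.5. Neutrophil markers were highest in KD at 12 h (12.1 to 17.6 CPM), where Mmp8 alone held 9.07 to 12.75 CPM. Markers of fibroblasts and endothelium were at 1.25 to 1.84 CPM in the NC controls and 3.13 to 5.46 at 24 h, and at 1.66 to 3.66 and 4.39 to 5.96 in KD. Neuron markers, nearly all Tubb3, were at 0.719 to 3.06 CPM in NC and 3.14 to 10.6 CPM in KD. What part these differences have in the results was not tested. In bulk RNA, fewer cells of a kind and less RNA per cell cannot be told apart.

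At 12 h of oxyhemoglobin the cells carried more RNA for the collagenase Mmp13, the gelatinase Mmp9 and the urokinase receptor Plaur and less for the inhibitor Timp2, in both lines. In NC, 3 of the 8 tested genes rose at 12 h, as did 6.69% of all tested genes at an adjusted p of 0.05, and 3 fell, as did 5.55% (12.2% in both directions). In the libraries labelled KD, 5 rose (7.93% of all genes) and 2 fell (8.06%, 16% in all). At 24 h, 3 had risen (4.66%) and 1 had fallen (2.91%, 7.57% in all) in NC, and 4 had risen (5.5%) and 1 had fallen (4.09%, 9.59% in all) in KD. Between 12 h and 24 h, 2 rose and 1 fell in each line. The shares of all genes were 1.63% and 1.13% in NC (2.76% in all) and 2.81% and 1.46% in KD (4.28% in all). The median log2 fold change over the 8 genes at 12 h was 0.42 in NC and 0.88 in KD, beside -0.01 and 0.00 over all tested genes. The comparisons with 0 h share the control libraries of each line.

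Between the lines, in the controls 2 genes were higher (0.763% of all tested genes) and 2 lower (1.3%, 2.06% in all) in the libraries labelled KD. At 12 h 1 was higher (0.5%) and 1 lower (1.1%, 1.6% in all), and at 24 h again 1 higher (0.469%) and 1 lower (0.925%, 1.39% in all). Averaged over the times 3 were higher (4.01%) and 1 lower (5.98%, 9.99% in all). The interaction tests, which ask whether the change with oxyhemoglobin differed between the lines, passed for 1 gene of the 8, Plau, with the more positive change in KD at both times. Of all tested genes 0.0625% had a more positive and 0.0125% a more negative change in KD at 12 h (0.075% in all), and 0.025% and 0.00625% at 24 h (0.0313% in all). With the library number as a block the shares of all genes were larger, at 24.7% and 18.9% in NC at 12 h and 24 h, 28.8% and 21.5% in KD, 11.5% and 12.3% between 12 h and 24 h in NC and KD, and 10.9% between the lines at 12 h, while 7 members passed at 12 h, 6 at 24 h and 5 between 12 h and 24 h in NC (in place of 6, 4 and 3), 7, 6 and 4 in KD (in place of 7, 5 and 3) and 3 between the lines at 12 h (in place of 2). The split of all passing genes into higher and lower also varied with the setting. Ranges in parentheses are over other scaling factors and the fits on TPM, which differ in test and filter as well as scale. Of the genes passing, 59.2% were higher between 12 h and 24 h in NC (16.1% to 59.5%) and 65.8% in KD (33.9% to 64.2%). In NC 54.6% were higher at 12 h (51.7% to 64.7%) and 61.5% at 24 h (42.7% to 61%). In KD 49.6% were higher at 12 h (46.9% to 63.7%) and 57.4% at 24 h (45.9% to 56.7%). Between the lines 37% were higher in the KD controls (36.7% to 51.5%), 31.2% at 12 h (28.7% to 58.5%), 33.6% at 24 h (29.8% to 71.8%) and 40.2% averaged (36.5% to 65.6%). For the members that passed, the sign was the same under every alternative run. The shares of all genes are printed for scale, and no excess over them is claimed for genes chosen on these values. Of the 42 gene-by-comparison values that passed in the 12 comparisons, 31 passed in every fit that left out 1 library, and the sign was the same in all of them.

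**Figure D1:**
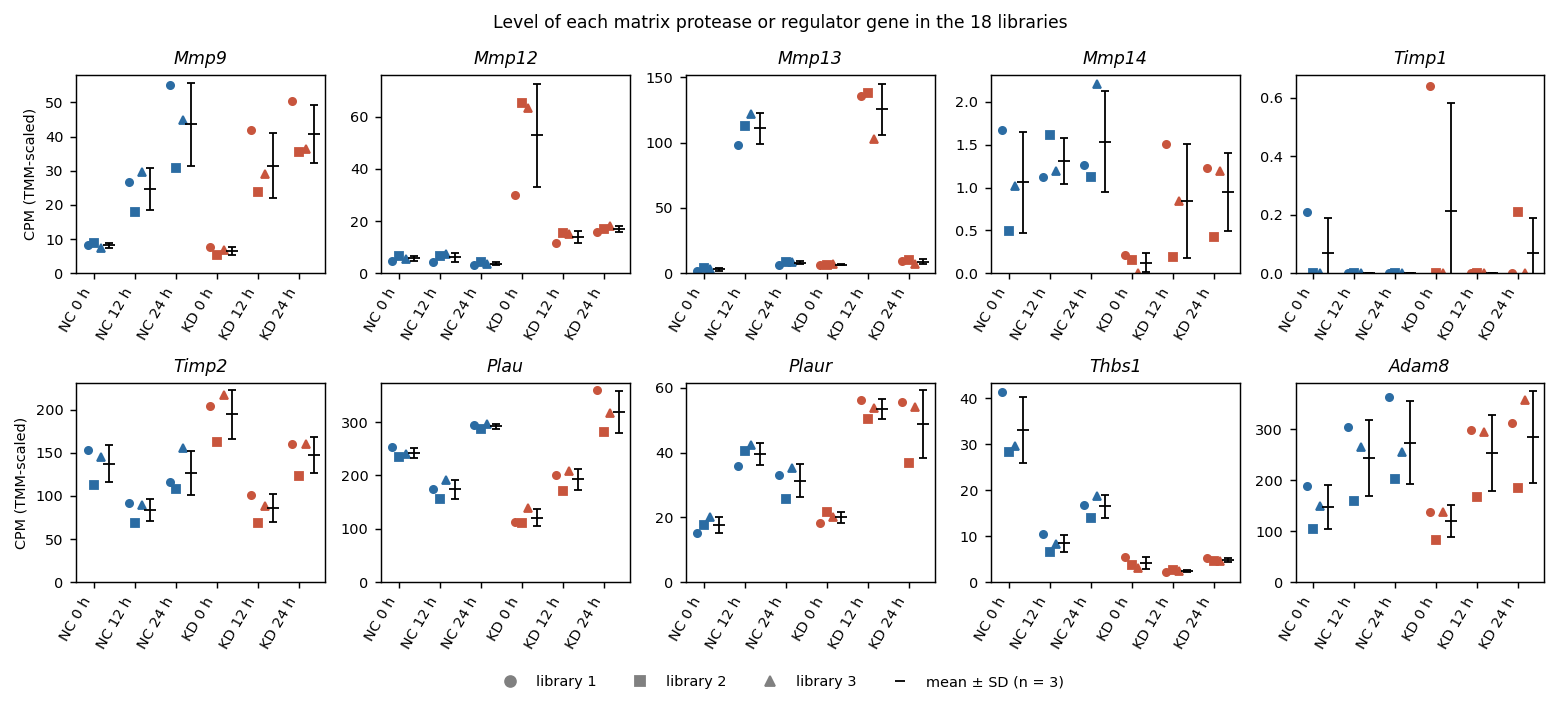
Level of each of the 10 genes in all 18 libraries, in TMM-scaled CPM on linear axes that start at 0 and differ between panels, for NC (blue) and KD-labelled (red) libraries at 0, 12 and 24 h. Points are single libraries with a shape for each library number, and the bar beside them is the mean ± SD (n = 3); Mmp13 stands far above its other groups at 12 h in both lines, and Mmp12 and Thbs1 differ most between the lines.

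A window upstream of the start site shows what 3 of these genes share in sequence. RefSeq promoter windows (GRCm38.p6) were matched by symbol for 7 of the 10 genes, 8 windows in all. The windows of Mmp13, of Plaur and of a second, downstream start of Mmp12 hold the motif TGANTCA, which is bound by the Fos and Jun proteins of AP-1, read on both strands. The motif stands at -35 to -29 from the Mmp13 start, at -69 to -63 from the Plaur start and at -44 to -38 from the second Mmp12 start, and 7.813% of the 32817 windows of 300 bases in the table hold it. A kappaB site was searched as GGG, a purine, any pair of bases, a pair of pyrimidines and CC, on both strands. It was matched in the window of the first Mmp12 start and in 8.459% of all windows. The windows of Mmp14, Timp1, Timp2, Adam8 and the first Mmp12 start hold no TGANTCA, and the second Mmp12 start lies 2993 bases from the gene start. The 3 genes with a match differ in the patterns described below. These are a peak at 12 h (Mmp13), a rise at both times (Plaur) and a level higher in KD at each time (Mmp12). The 250 bases before each of the 3 matched starts are shown because their windows hold the motif. They read 5′ to 3′ on the plus strand with the match in capitals, from chr9:7272264-7272513, chr7:24462233-24462482 and chr9:7347124-7347373.
Mmp13: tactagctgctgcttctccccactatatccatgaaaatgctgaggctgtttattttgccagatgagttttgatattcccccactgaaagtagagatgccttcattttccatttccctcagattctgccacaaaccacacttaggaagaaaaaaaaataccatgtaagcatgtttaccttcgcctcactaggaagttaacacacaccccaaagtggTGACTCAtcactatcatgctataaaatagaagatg
Plaur: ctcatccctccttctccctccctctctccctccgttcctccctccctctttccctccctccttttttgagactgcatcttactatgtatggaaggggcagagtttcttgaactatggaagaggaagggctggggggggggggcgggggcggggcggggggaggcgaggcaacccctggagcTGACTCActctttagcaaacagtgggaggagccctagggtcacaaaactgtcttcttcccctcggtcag
Mmp12: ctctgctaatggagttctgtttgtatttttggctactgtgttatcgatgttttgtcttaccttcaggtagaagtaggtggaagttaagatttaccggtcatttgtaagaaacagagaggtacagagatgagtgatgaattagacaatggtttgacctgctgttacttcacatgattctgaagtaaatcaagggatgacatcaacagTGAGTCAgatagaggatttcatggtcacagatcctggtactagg
A match is a run of letters and does not show that a factor was bound. No binding was measured in these samples.

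Mmp13 encodes a collagenase that cuts fibrillar collagens. It lies on chromosome 9 from 7272514 to 7283331 on the plus strand (GRCm38, GENCODE M21), with 10 exons in its 1 transcript. In NC controls its 3 libraries stood at 1.67, 4.29 and 3.27 CPM, at 12 h at 98.2, 113 and 122 CPM, and at 24 h at 6.58, 8.47 and 8.84 CPM. The KD libraries stood at 6.62, 6.56 and 6.87 CPM in controls, at 135, 138 and 103 CPM at 12 h, and at 9.63, 10.04 and 6.91 CPM at 24 h. All 6 libraries at 12 h were thus far above the other 12, with no overlap. Mmp13 rose at 12 h by 5.13 ± 0.25 on the log2 scale in NC (35.1-fold, adjusted p = 1.83e-12) and by 4.23 ± 0.23 in KD (18.7-fold, adjusted p = 1.43e-11). It had the largest fold change at 12 h of the 8 tested genes in both lines. It then fell between 12 h and 24 h by 3.78 ± 0.23 in NC (13.8-fold, adjusted p = 7.64e-10) and by 3.81 ± 0.23 in KD (14.0-fold, adjusted p = 5.73e-10).

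At 24 h Mmp13 in NC was still 1.35 ± 0.27 above its control (adjusted p = 0.00211). On the log2(TPM + 1) scale that difference was 0.96 with an adjusted p = 0.0836. In KD the 24 h libraries did not overlap the controls, but the difference of 0.42 did not pass (adjusted p = 0.346). The KD controls all lay above the NC controls, by 1.08 ± 0.27 (adjusted p = 0.035). That call was lost without any 1 of 5 control libraries, NC 1 or 3 or KD 1, 2 or 3, with adjusted p between 0.0924 and 0.142. It was also lost with the compared groups fitted alone (0.255), in all 3 fits on TPM (0.176 to 0.264) and without all libraries numbered 2 (0.0708). The NC controls hold only 8, 26 and 16 counts of Mmp13. At 12 h and 24 h the lines overlapped. The average over times, 0.47 ± 0.14 higher in KD (adjusted p = 0.0302), was lost in 7 of the 18 fits that left out 1 library, with adjusted p from 0.0503 to 0.0596. These were the fits without NC control 1, NC 12 h 1, NC 24 h 1, KD 12 h 1 or 2, or KD 24 h 1 or 2. The average was also lost in all 3 fits on TPM (0.116 to 0.163) and without all libraries numbered 2 (0.0601).

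Mmp9 encodes gelatinase B, which cuts denatured collagen and the type IV collagen of basement membranes. It lies on chromosome 2 from 164940780 to 164955850, and its longest coding transcript has 13 exons. Its NC libraries stood at 8.35, 8.91 and 7.35 CPM in controls, at 26.6, 18 and 29.7 CPM at 12 h, and at 55.0, 30.9 and 44.7 CPM at 24 h. Those labelled KD stood at 7.68, 5.34 and 6.87 CPM, then at 41.9, 23.7 and 29.0 CPM, then at 50.4, 35.4 and 36.4 CPM. Every treated library was above every control library of either line. Mmp9 had its highest group mean at 24 h in both lines, and Mmp13 at 12 h.

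Mmp9 rose at 12 h by 1.58 ± 0.27 in NC (3-fold, adjusted p = 0.00025) and by 2.26 ± 0.27 in KD (4.77-fold, adjusted p = 2.8e-06). At 24 h it was 2.40 ± 0.27 above control in NC (5.27-fold, adjusted p = 2.13e-06) and 2.63 ± 0.27 in KD (6.19-fold, adjusted p = 5.25e-07). From 12 h to 24 h the NC difference of 0.81 did not pass (adjusted p = 0.086). It passed with the library number as a block (0.80, adjusted p = 0.00038) and without NC 24 h library 2 (1.00, adjusted p = 0.0411). The lines overlapped at each time, and the difference was -0.32 in the controls (adjusted p = 0.756) and 0.35 at 12 h (adjusted p = 0.622).

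Mmp12 encodes macrophage elastase, a metalloproteinase made mainly by macrophages that cuts elastin. The gene lies next to Mmp13 on chromosome 9, from 7344381 to 7369499 on the plus strand, and exons of Mmp1b, on the other strand, cover 2.17% of its exon bases. The NC libraries held 4.80, 6.76 and 5.51 CPM in controls, 4.28, 6.65 and 7.53 CPM at 12 h and 3.04, 4.14 and 3.68 CPM at 24 h. The KD libraries held 29.9, 65.2 and 63.2 CPM in controls, 11.4, 15.3 and 15.1 CPM at 12 h and 15.8, 16.9 and 18.1 CPM at 24 h. At each time all KD libraries were above all NC libraries, and the KD controls were the highest of all. Mmp12 was 3.20 ± 0.28 higher in the KD controls (9.20-fold, adjusted p = 3.15e-07), 1.17 ± 0.29 higher at 12 h (2.26-fold, adjusted p = 0.0361) and 2.2 ± 0.30 higher at 24 h (4.61-fold, adjusted p = 0.000455). The average over the times was 2.19 ± 0.17 (adjusted p = 1.31e-08).

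The call at 12 h was lost without any 1 of 5 libraries, NC 12 h 1, 2 or 3 or KD 12 h 2 or 3 (adjusted p 0.0581 to 0.21), and without all 6 libraries numbered 2 (0.176). It was also lost with the compared groups fitted alone (adjusted p = 0.0878) and in all 3 fits on TPM (0.187 to 0.305). The call at 24 h was lost on the log2(TPM + 1) scale (1.15, adjusted p = 0.0565). With oxyhemoglobin Mmp12 fell in the KD libraries, by 1.92 ± 0.26 at 12 h (3.78-fold, adjusted p = 1.09e-05) and by 1.64 ± 0.26 at 24 h (3.12-fold, adjusted p = 1e-04). In NC it was 0.65 ± 0.32 below control at 24 h, without passing (adjusted p = 0.286), and the libraries at 12 h overlapped the controls. The difference between the 2 responses at 12 h was -2.03 ± 0.40 with an adjusted p = 0.0501. It passed without KD control library 1, the lowest of the 3 KD controls (-2.31, adjusted p = 0.00625), with upper-quartile factors (-2.03, adjusted p = 0.0463), with no filter (-2.02, adjusted p = 0.000964) and with DESeq2 (-2.03, adjusted p = 0.00375). At 24 h the difference between the responses was -1 ± 0.42 (adjusted p = 1). Library 1 had the lowest Mmp12 level in CPM in all 6 groups and in 5 of the 6 by TPM.

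Mmp14 encodes a membrane-anchored metalloproteinase that activates the Mmp2 precursor. It lies on chromosome 14 from 54431612 to 54445364 and was too low to test. Single libraries held 3 to 12 counts in NC and 0 to 7 in KD. The NC libraries stood between 0.495 and 2.21 CPM. The KD libraries reached 0.213 CPM in controls and 1.51 CPM at 12 h. Over all times there were 59 counts in NC and 28 in KD, a ratio of count rates of KD to NC of 0.474 (exact 95% interval 0.291 to 0.756, for counting error only). The KD controls hold 2 of these 28 counts, and the third KD control, with none, allows up to 0.624 CPM at a floor of 3 counts. Without a filter on low counts, no comparison of Mmp14 had an adjusted p under 0.082.

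Adam8 encodes a membrane metalloprotease of leukocytes that sheds surface proteins. On chromosome 7 the gene runs from 139978932 to 139992562 on the minus strand, and exons of a gene on the other strand cover 0.992% of its exon bases. The NC libraries stood at 189.7, 105 and 149 CPM in controls, at 304, 159.9 and 266 CPM at 12 h, and at 363, 202 and 256 CPM at 24 h. The KD libraries stood at 138, 83.4 and 138 CPM, then at 299, 167 and 294 CPM, then at 313, 184 and 359 CPM. In each of the 6 groups library 2 was the lowest, in CPM and in TPM alike. Among libraries with the same number, Adam8 was higher at 12 h and at 24 h than in the control in both lines.

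Adam8 rose in KD by 1.08 ± 0.32 at 12 h (2.12-fold, adjusted p = 0.0238) and by 1.26 ± 0.32 at 24 h (2.39-fold, adjusted p = 0.0144). The first call was lost without KD control 2 (adjusted p = 0.107), KD 12 h 1 (0.0937) or KD 12 h 3 (0.0916), and the second without KD control 2 (0.0785), KD 24 h 1 (0.0526) or KD 24 h 3 (0.071). In NC the differences were 0.72 ± 0.31 at 12 h (adjusted p = 0.164) and 0.89 ± 0.32 at 24 h (adjusted p = 0.103). With the library number as a block they were 0.71 (adjusted p = 3.62e-07) and 0.89 (adjusted p = 3.78e-09), and without all libraries numbered 2 they were 0.72 (adjusted p = 0.0188) and 0.85 (adjusted p = 0.00992). The lines overlapped at each time.

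**Figure D2:**
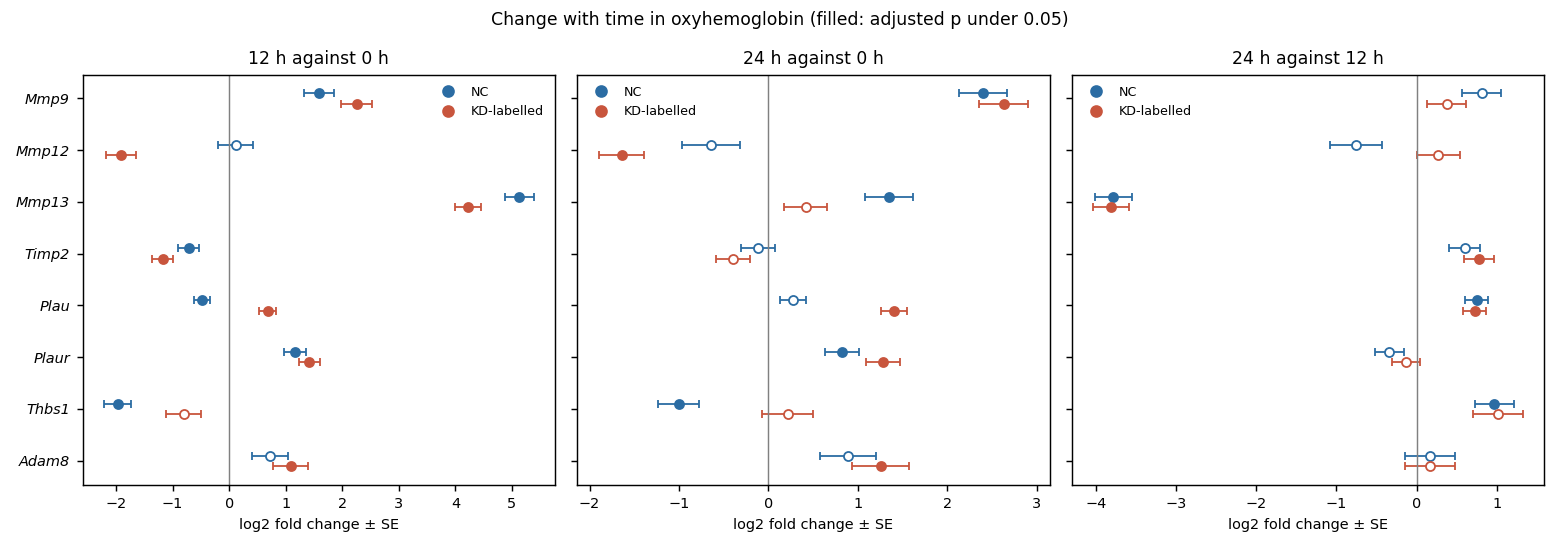
Change of the 8 tested genes with time, as log2 fold change ± SE on the x axis, in NC (blue) and KD-labelled (red) libraries, for 12 h and 24 h against 0 h and for 24 h against 12 h. Filled points passed an adjusted p of 0.05; at 12 h Mmp13 is at 5.13 and 4.23, between 12 h and 24 h it is at -3.78 and -3.81, and Plau lies on opposite sides of 0 at 12 h in the 2 lines.

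Plau encodes urokinase, the secreted serine protease that activates plasminogen. The gene is on chromosome 14 from 20836660 to 20843385, and its longest coding transcript has 11 exons. The NC libraries stood at 253, 235 and 239.5 CPM in controls, at 174, 156 and 192 CPM at 12 h, and at 294, 287 and 296 CPM at 24 h. The KD libraries stood at 113, 110.4 and 139 CPM in controls, at 201, 171 and 208 CPM at 12 h, and at 360.1, 281 and 318 CPM at 24 h. The NC libraries thus dipped at 12 h and were above control at 24 h, while the KD libraries began lower and were higher at each later time, and neither line's times overlapped. At 12 h and 24 h the lines overlapped.

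In the controls Plau was 1.01 ± 0.15 lower in KD (2.01-fold, adjusted p = 0.00023). In KD it rose by 0.68 ± 0.15 at 12 h (1.60-fold, adjusted p = 0.00192) and by 1.40 ± 0.15 at 24 h (2.65-fold, adjusted p = 5.64e-07). In NC it fell by 0.48 ± 0.14 at 12 h (1.39-fold, adjusted p = 0.0305). That call was lost without NC control 1 (adjusted p = 0.0529), NC 12 h 1 (0.0896) or NC 12 h 2 (0.0819), and in all 3 fits on TPM (0.0582 to 0.084). It was also lost with no filter (0.0924), with the compared groups fitted alone (0.0923) and without all libraries numbered 2 (0.0799). At 24 h NC was 0.27 above control (adjusted p = 0.326, and 0.028 with the library number as a block). From 12 h to 24 h Plau rose in both lines, by 0.75 ± 0.15 in NC (adjusted p = 0.00433) and by 0.73 ± 0.15 in KD (adjusted p = 0.0033). On the log2(TPM + 1) scale the KD step was 0.50 (adjusted p = 0.0592).

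The change with oxyhemoglobin differed between the lines, by 1.16 ± 0.21 at 12 h (adjusted p = 0.019) and by 1.13 ± 0.21 at 24 h (adjusted p = 0.0447), with the larger rise in KD. The 2 tests share the control libraries, in which the lines differ. The 12 h test no longer passed without NC 12 h 1, KD control 1 or 2, or KD 12 h 1 or 3 (adjusted p 0.0568 to 0.0878). The 24 h test no longer passed without any 1 of 11 libraries, NC control 1 or 3, NC 12 h 1, NC 24 h 2 or 3, KD control 1 or 2, KD 12 h 1 or 3, or KD 24 h 1 or 3 (0.0634 to 0.145).

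Plaur encodes the urokinase receptor, which holds urokinase at the cell surface. It lies on chromosome 7 from 24462484 to 24475968 on the plus strand, and its upstream sequence is the second of those printed above. The NC libraries stood at 15.2, 17.6 and 20.01 CPM in controls, at 35.8, 40.6 and 42.2 CPM at 12 h, and at 33.2, 25.6 and 35.2 CPM at 24 h. The KD libraries stood at 18.4, 21.6 and 19.97 CPM, then at 56.4, 50.3 and 53.8 CPM, then at 55.5, 36.8 and 54.1 CPM. All treated libraries were above all controls, and at 12 h and 24 h all KD libraries were above all NC libraries. Plaur rose in NC by 1.16 ± 0.19 at 12 h (2.24-fold, adjusted p = 0.000167) and was 0.83 ± 0.19 above control at 24 h (1.77-fold, adjusted p = 0.00728). On the log2(TPM + 1) scale the 24 h difference was 0.59 (adjusted p = 0.136). In KD it rose by 1.42 ± 0.19 at 12 h (2.67-fold, adjusted p = 8.63e-06) and by 1.28 ± 0.19 at 24 h (2.44-fold, adjusted p = 4.72e-05).

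Averaged over the times Plaur was 0.42 ± 0.11 higher in KD (1.34-fold, adjusted p = 0.0142). At 12 h the difference was 0.43 (adjusted p = 0.304, and 0.0426 with the library number as a block). At 24 h it was 0.64 (adjusted p = 0.0883). In the controls, where Plau was lower in KD, the Plaur libraries of the lines overlapped.

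Timp2 encodes a secreted inhibitor of metalloproteinases that also takes part in the activation of the Mmp2 precursor. On chromosome 11 the gene runs from 118301069 to 118355740 on the minus strand. The NC libraries stood at 154, 113 and 145 CPM in controls, at 92.3, 68.8 and 89.2 CPM at 12 h, and at 116, 108 and 156 CPM at 24 h. The KD libraries stood at 204, 163 and 217 CPM, then at 102, 68.8 and 87.8 CPM, then at 160.1, 123 and 159.8 CPM. In both lines all libraries at 12 h were below all others of that line. At 24 h the NC libraries overlapped the NC controls, while the KD libraries lay below theirs.

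Timp2 fell by 0.72 ± 0.19 in NC at 12 h (1.65-fold, adjusted p = 0.0142) and by 1.18 ± 0.19 in KD (2.27-fold, adjusted p = 0.000109). The NC call was lost without NC 12 h library 2 (adjusted p = 0.0509). In KD it rose from 12 h to 24 h by 0.78 ± 0.19 (adjusted p = 0.0178). That call was lost without KD 12 h 2 (adjusted p = 0.114), KD 12 h 3 (0.0584), KD 24 h 1 (0.0757) or KD 24 h 3 (0.072). It was also lost on unfiltered log2(TPM + 1) (0.0571). In NC the same step was 0.60 ± 0.19 (adjusted p = 0.108, and 2.71e-05 with the library number as a block). At 24 h Timp2 was 0.12 below control in NC (adjusted p = 0.819) and 0.40 below in KD (adjusted p = 0.22, and 0.00183 with the block). The KD controls were 0.51 above the NC controls, with no overlap, and did not pass (adjusted p = 0.221).

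Timp1 encodes another secreted inhibitor of metalloproteinases. The gene is on chromosome X from 20870166 to 20874735, within the span of Syn1, with which it shares no exon bases. Only 5 counts fell on it, 1 in an NC control, 3 in KD control library 1 and 1 in KD 24 h library 2, and the other 15 libraries held none. With 3 counts as the floor, a library without a count allows between 0.457 and 0.76 CPM. No change in Timp1 was detectable at this depth.

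Thbs1 encodes thrombospondin 1, a secreted matrix glycoprotein that binds other matrix proteins and can activate latent TGF-beta. Chromosome 2 carries it from 118111876 to 118127133, and exons of Gm29233, on the other strand, cover 3.43% of its exon bases. The NC libraries stood at 41.3, 28.4 and 29.6 CPM in controls, at 10.4, 6.65 and 8.32 CPM at 12 h, and at 16.7, 13.9 and 18.8 CPM at 24 h. The KD libraries stood at 5.55, 3.81 and 3.12 CPM, then at 2.16, 2.59 and 2.31 CPM, then at 5.25, 4.6 and 4.53 CPM. Each KD library was below every NC library at any time, and only 10 to 30 counts stood behind a KD value. Thbs1 was 2.99 ± 0.26 lower in the KD controls (7.95-fold, adjusted p = 2.74e-07), 1.82 ± 0.29 lower at 12 h (3.53-fold, adjusted p = 0.00161) and 1.77 ± 0.26 lower at 24 h (3.41-fold, adjusted p = 0.00081). Averaged over the times the difference was -2.19 ± 0.16 (adjusted p = 4.44e-09).

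With oxyhemoglobin Thbs1 fell in NC by 1.97 ± 0.24 at 12 h (3.93-fold, adjusted p = 4.33e-06) and by 1.00 ± 0.23 at 24 h (2.00-fold, adjusted p = 0.00649). From 12 h to 24 h it rose again in NC by 0.97 ± 0.24 (adjusted p = 0.0314). That call was lost without NC 12 h 2 (adjusted p = 0.125), NC 12 h 3 (0.122), NC 24 h 1 (0.0714) or NC 24 h 3 (0.125). It was also lost with no filter (0.0526), with the compared groups fitted alone (0.0782) and without all libraries numbered 2 (0.141). On log2(TPM + 0.1) (0.0928) and unfiltered log2(TPM + 1) (0.0584) it was lost as well. In KD the 12 h libraries lay below the controls by 0.80 ± 0.31 without passing (adjusted p = 0.0859), and the 24 h libraries overlapped them. The step from 12 h to 24 h in KD was 1.02 ± 0.31 (adjusted p = 0.0656, and 0.0244 with the library number as a block). The responses of the lines differed by 1.17 ± 0.40 at 12 h, which did not pass (adjusted p = 0.544). On log2(TPM + 1) that difference was 1.25 and passed (adjusted p = 0.0493, and 0.0468 unfiltered).

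**Figure D3:**
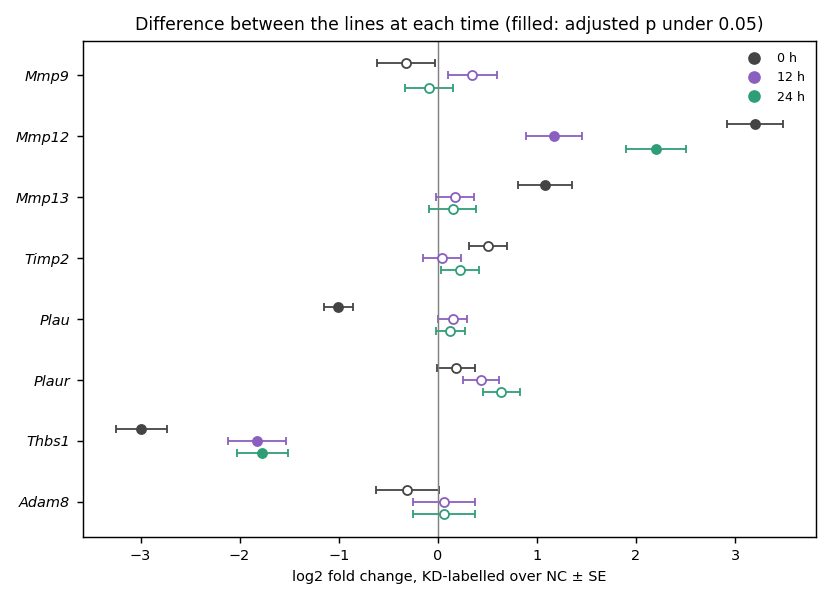
Difference of the libraries labelled KD from NC for the 8 tested genes, as log2 fold change ± SE on the x axis, at 0 h (black), 12 h (purple) and 24 h (green). Filled points passed an adjusted p of 0.05; Mmp12 is higher and Thbs1 lower in KD at each time, and Plau and Mmp13 pass only at 0 h.

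Per length, Plau had the most RNA of the 10 genes, with a mean of 106.8 TPM over the 18 libraries, followed by Timp2 (52.8 TPM), Mmp13 (31.9 TPM) and Adam8 (23.8 TPM). Plaur (9.56 TPM) and Mmp9 (8.94 TPM) came next, then Thbs1 (3.13 TPM) and Mmp12 (2.31 TPM), with Mmp14 (0.173 TPM) and Timp1 (0.0608 TPM) last. The deposited gene lengths add up the lengths of all transcripts for 98% of genes with several exons, and so exceed the exon bases most for genes with many transcripts. For Adam8 the deposited length was 3.57 times its exon bases and for Plaur 2.6 times, while for Mmp13, with 1 transcript, both lengths were equal. Counted per kilobase of exon bases instead, Adam8 moved from the fourth place to the second. Timp2 and Mmp13 then came after Adam8, and Mmp12 came before Thbs1. Within each group the order also depends on time, since Mmp13 had 2.18 TPM in the NC controls and 76.9 TPM at 12 h. By deposited TPM, Plau (116 TPM) and Timp2 (55.3 TPM) led in the NC controls, and Plau (104.5 TPM) and Mmp13 (96.8 TPM) in KD at 12 h. Adam8 had 30.9 TPM in KD at 12 h, a value lowered by its long deposited length. Single groups were not ranked per kilobase of exon bases.

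The other genes of matrix turnover were read from 8 lists that together hold 146 genes, of which 61 had enough counts to be tested. In NC 10 of the 61 rose and 6 fell at 12 h (6.69% and 5.55% of all tested genes), and 8 rose and 4 fell at 24 h (4.66% and 2.91%). In KD 13 rose and 8 fell at 12 h (7.93% and 8.06%), and 7 rose and 6 fell at 24 h (5.5% and 4.09%). The same shares of all genes stand against the counts of single lists that follow. With the library number as a block, 29, 24, 32 and 30 of the 61 passed in these 4 comparisons in place of 16, 12, 21 and 13. Of all tested genes 24.7%, 18.9%, 28.8% and 21.5% passed with the block. Without all libraries numbered 2, 12, 5, 14 and 6 of 60 passed, and 9.56%, 5.1%, 12.4% and 7% of all genes tested there. The counts fell to 9 without NC 12 h library 1 in the first, to as few as 6 without NC control 3 or NC 24 h 3 in the second, to 13 without KD control 2 in the third and to 8 without KD 24 h 1 in the fourth. Averaged over times 7 were higher and 7 lower in KD (4.01% and 5.98% of all tested genes), and between 12 and 15 passed when 1 library was left out. Of the 61, 0 passed the interaction test at 12 h or at 24 h (0.075% and 0.0313% of all tested genes). With the library number as a block 3 and 2 passed (2.07% and 1.21%). The genes named next kept their calls in every fit without 1 library unless stated.

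In the plasminogen system, 2 of 8 tested genes rose and 1 fell at 12 h in each line (list medians 0.11 in both, against -0.01 and 0.00 over all genes). Thbd, the thrombin receptor thrombomodulin, fell by 1.47 at 12 h and 1.55 at 24 h in NC (adjusted p = 1.24e-05 and 1.27e-05) and by 1.94 and 2.10 in KD (adjusted p = 3.3e-07 and 1.86e-07). Averaged over times Thbd was also 0.68 lower in KD (adjusted p = 0.00036).

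Of the 3 other protease inhibitors that could be tested, 1 rose at each time in each line (list medians at 12 h 0.27 in NC and 0.08 in KD, against -0.01 and 0.00 over all genes, the values for comparison below as well). This was Slpi, an inhibitor of neutrophil elastase and related serine proteases, which rose by 3.06 at 12 h and 2.18 at 24 h in NC (adjusted p = 0.000111 and 0.00775) and by 2.2 and 2.25 in KD (adjusted p = 0.00354 and 0.00467). Its level was low, with a highest group mean of 4.99 CPM, and it was named after its values were seen. Timp3, A2m and Serping1 had no count in any library. Of the Timp family, Timp2 alone was above the filter.

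Among the other metalloproteinases 3 of 19 were high enough to test, with list medians at 12 h of 0.19 in NC and 0.33 in KD, and 6 had no count at all. Mmp8, the collagenase of neutrophils, was 2.23 higher in the KD controls (adjusted p = 0.00477) and 1.56 higher averaged over times (adjusted p = 5.36e-05), with 0.417 to 2.04 CPM in the NC controls and 3.66 to 6.19 CPM in the KD controls. It rose at 12 h by 1.59 in NC (adjusted p = 0.0216) and by 1.20 in KD (adjusted p = 0.0157), calls lost in 4 and 3 of the 18 fits. It lies in the same cluster on chromosome 9 as Mmp12 and Mmp13. Mmp24, a membrane-anchored metalloproteinase, fell by 1.69 in KD at 12 h (adjusted p = 0.00134), where the NC difference was 0.19 (adjusted p = 0.81). The Mmp24 responses at 12 h differed by -1.87, which did not pass (interaction adjusted p = 0.253). Mmp23 was 0.97 lower in KD averaged over times (adjusted p = 0.00109). Of the 7 tested ADAM and ADAMTS genes beside Adam8, 1 rose at 12 h in each line (list medians 0.09 and 0.25). This was Adamts1, whose call was lost in 2 of the 18 fits without 1 library in NC and in 4 in KD.

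Among 13 tested activators and other matrix enzymes, 1 rose and 1 fell at 12 h in NC, and 3 rose and 2 fell in KD (list medians -0.12 and 0.21). St14, the membrane serine protease matriptase, rose in KD by 1.12 at 12 h and 0.98 at 24 h (adjusted p = 0.000647 and 0.00395). In NC the differences were 0.05 and 0.29 (adjusted p = 0.924 and 0.516). The St14 responses of the lines differed by 1.07 at 12 h (interaction adjusted p = 0.36) and 0.69 at 24 h, and neither passed. Furin, a convertase that activates membrane-type metalloproteinases, rose in KD by 1.02 at 12 h (adjusted p = 0.0116, lost in 2 of the 18 fits) and 1.14 at 24 h (adjusted p = 0.00805). In NC the differences were 0.51 and 0.47 (adjusted p = 0.262 and 0.369). The Furin responses differed by 0.51 at 12 h (interaction adjusted p = 0.999) and 0.68 at 24 h, and neither passed. Of 11 tested cathepsins and legumain, 2 fell at 12 h in NC, and 3 fell and 1 rose in KD (list medians -0.11 and 0.27). Ctsf fell by 1.57 in NC (adjusted p = 0.00288) and by 1.84 in KD (adjusted p = 0.000558) at 12 h, and fell by 1.18 in NC (adjusted p = 0.0303, lost in 4 of the 18 fits) and by 1.83 in KD (adjusted p = 0.000953) at 24 h. Ctsa fell by 0.97 in NC at 12 h (adjusted p = 0.00441), by 1.07 in NC at 24 h (adjusted p = 0.00309) and by 0.75 in KD at 12 h (adjusted p = 0.0209, lost in 3).

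Of 9 tested genes in a list of other thrombospondins, thrombospondin receptors and Tgfb1, 2 rose at 12 h in each line (list medians 0.03 and 0.25). Itgb3, an integrin subunit that binds thrombospondin and vitronectin, rose by 1.60 at 12 h and 2.2 at 24 h in NC (adjusted p = 2e-04 and 5.68e-06) and by 1.07 and 1.66 in KD (adjusted p = 0.00375 and 5.81e-05). Tgfb1 rose at 12 h by 1.17 in NC (adjusted p = 0.00245) and by 0.81 in KD (adjusted p = 0.0255, lost in 2 of the 18 fits), and at 24 h by 0.95 in NC (adjusted p = 0.0184, lost in 4). Cd44, a receptor for hyaluronan that can hold Mmp9 at the cell surface, was 0.70 higher in KD averaged over times (adjusted p = 0.000236). Of the 32 genes of the matrix itself, 7 could be tested, and 2 rose at 12 h in each line while 2 fell in NC and 1 in KD (list medians 0.32 and 0.04). Col4a2, a chain of the type IV collagen that Mmp9 cuts, rose by 2.84 in NC (adjusted p = 1.02e-06) and by 2.04 in KD (adjusted p = 4.58e-05) at 12 h, and was still 1.44 above control in NC at 24 h (adjusted p = 0.0056). Its partner chain Col4a1 had 2 counts in all.

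**Figure D4:**
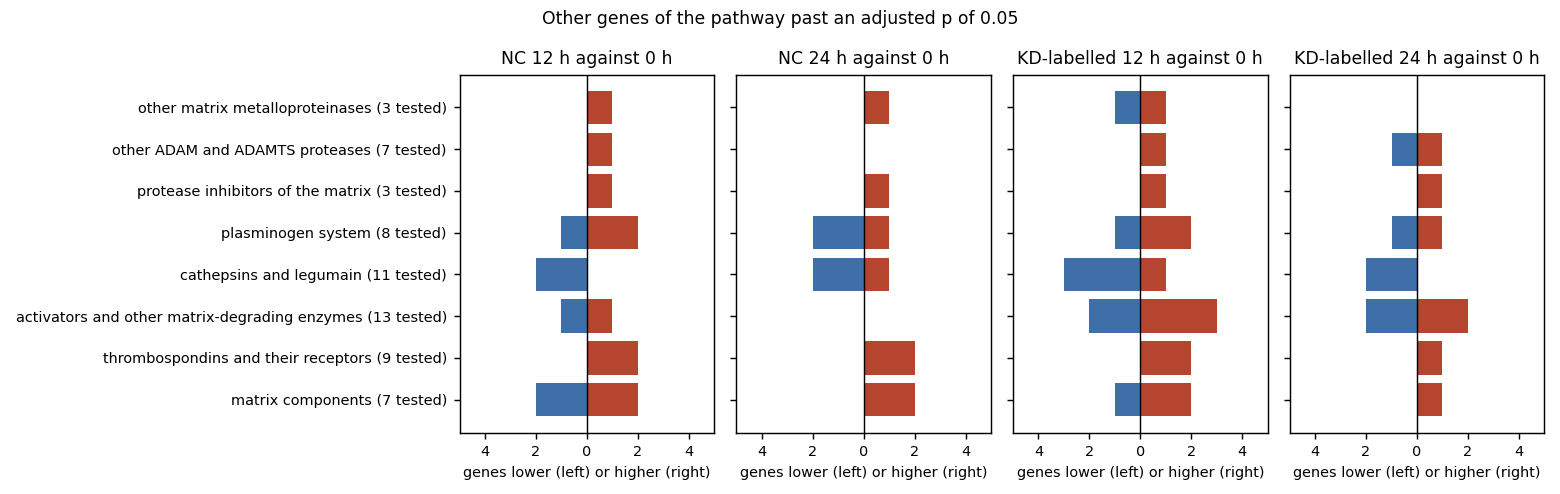
Number of genes of each of 8 lists that passed an adjusted p of 0.05, lower to the left in blue and higher to the right in red, at 12 h and 24 h against 0 h in NC and in KD-labelled libraries. The number of tested genes stands beside each list name; no bar is longer than 3 genes.

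The genes whose log2 CPM followed each member most closely over the 18 libraries were read from 10804 genes with a mean of at least 5 CPM. These correlations (Pearson r, across libraries that share groups, depth and library numbers) are a description with no test. Mmp9 was most like St3gal6 (0.96) and the growth factor gene Hbegf (0.96). Mmp13 was most like Cybb (0.95), a subunit of the phagocyte NADPH oxidase, and Tnfrsf1b (0.93), a receptor for Tnf. Adam8 was most like Furin (0.96) and Abtb2 (0.96), Timp2 like H2ac20 (0.97), Plaur like Gm20056 (0.97) and Zwint (0.96), and Thbs1 like Cd200r2 (0.94). Plau (Coq3, 0.85) and Mmp12 (Il12rb2, 0.88) had no neighbour above 0.9. Among the members themselves r was 0.86 for Mmp9 with Adam8, 0.81 for Mmp9 with Plaur, -0.79 for Mmp13 with Timp2 and 0.30 for Plau with Plaur.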

How the data were processed

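Deposited tables of RNA from 18 BV2 libraries were used. For their making the submitters' processing notes name bcl2fastq, HISAT2 2.2.0, featureCounts, DESeq2 and the GRCm38 build, with no order. The counts per gene deposited by the authors are whole numbers without normalization. The deposited TPM follow from those counts and the deposited lengths, to within 4.89e-05 of the value. The strand setting of the counting was not given in the sources used here, so genes that overlap on opposite strands cannot be told apart.

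Sample titles gave each library its group and number. The test was edgeR's quasi-likelihood test on the counts, with versions edgeR 4.0.16 and limma 3.58.1 under R 4.3.3. It used TMM factors, filterByExpr at a minimum count of 10, a robust fit and 1 mean per group, with all 18 libraries in 1 fit. P-values were adjusted by Benjamini-Hochberg over 15996 genes with a threshold of 0.05. Levels in CPM are TMM-scaled, and fold changes are log2 with their SE. Every pair of libraries within a group differed by more than counting noise, with a chi-square over its degrees of freedom between 4.65 and 18.5. The procedure was also run on simulated counts, drawn independently with the same dispersion for every gene. That run had no shared deviation by library number and does not cover that feature of these data.

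The members, the gene lists and the naming rule were chosen with earlier results of these data known. The rule allowed all members and, among genes past the threshold with at least 5 CPM in the higher group, up to 4 per list by lowest adjusted p between times and up to 2 between lines, of which examples are given. It also allowed the 3 genes most correlated with each member. Alternatives tried were other scaling factors (RLE, upper quartile), other filters (none, or 5 CPM in 3 libraries), DESeq2 1.42.0, the library number as a replicate block, only the compared groups in the fit, limma-trend on log2(TPM + 1) and log2(TPM + 0.1) at a mean TPM of at least 1, the former also unfiltered, and each library left out in turn. Leaving out all 6 libraries numbered 2 was added after seeing the data.

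What the library number means is not in the labels. Libraries with the same number deviated together from their group means, with every correlation above 0.1, in the 6 comparisons of times and between the lines at 12 h. For these the value with the block stands beside a call it changes. Between the lines at control and at 24 h the lowest correlations were 0.07 and 0.0946. Gene positions are those of GENCODE M21 (GRCm38), which no label names as the release used for counting. Promoter windows came from RefSeq (GRCm38.p6) and were matched by symbol.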

Additional observations from a re-analysis of the deposited data

Results flagged for a closer look

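The change of Plau, the urokinase gene, differed between the lines by a test of the difference itself. The interaction was 1.16 ± 0.21 on the log2 scale at 12 h (edgeR adjusted p = 0.019) and 1.13 ± 0.21 at 24 h (adjusted p = 0.0447). At 12 h Plau fell in 3 of 3 NC libraries against the controls and rose in 3 of 3 libraries labelled KD. Both tests rest on the same 6 control libraries, where Plau stood at 242.5 ± 9.31 CPM (SD, n = 3) in NC and 120.7 ± 15.5 CPM in KD. With all 6 libraries numbered 2 left out the values were 1.14 (adjusted p = 0.112) and 1.18 (adjusted p = 0.141), and with the compared groups fitted alone 1.16 (adjusted p = 0.0753) and 1.13 (adjusted p = 0.0769).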

How the results depend on the processing

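Of 42 member values past the threshold, 27 stayed past it under every alternative run and 0 changed sign. Leaving out 1 library at a time gave these counts of members past the threshold: 4 to 6 (NC at 12 h), 4 to 4 (NC at 24 h), 2 to 4 (NC, 24 h against 12 h), 6 to 7 (KD at 12 h), 4 to 5 (KD at 24 h), 2 to 3 (KD, 24 h against 12 h), 3 to 4 (lines at control), 1 to 2 (lines at 12 h), 2 to 2 (lines at 24 h), 3 to 5 (lines averaged), and 0 to 1 for each interaction. For NC at 24 h 2 members passed in all 3 TPM fits in place of 4, and for KD 24 h against 12 h 1 passed on unfiltered log2(TPM + 1) in place of 3. Between the lines at 12 h 1 passed in place of 2 with the compared groups alone, in all 3 TPM fits and without the libraries numbered 2. At 24 h 1 passed in place of 2 on log2(TPM + 1), with and without its filter. For the interaction at 12 h 2 passed in place of 1 with upper-quartile factors, no filter, DESeq2, the replicate block, and log2(TPM + 1) with and without its filter (the added gene was Thbs1 in these TPM fits and Mmp12 in the others), and 0 with the compared groups alone or without the libraries numbered 2. For the interaction at 24 h 0 passed under those last 2 settings. The cause was not tested. The fit of the compared groups alone does not apply to the average, which uses all groups.

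With the replicate block, 5 members passed in NC 24 h against 12 h in place of 3, and 6 in place of 4 in NC at 24 h, and all-gene counts rose, for example from 1958 to 3948 (NC at 12 h) and from 330 to 1496 (lines at control). Where the numbers did not meet the pairing check, the block moved past the threshold Timp2 (0.51, adjusted p = 0.000306) at control, Plaur (0.64, adjusted p = 0.0029) at 24 h, Timp2 (0.26, adjusted p = 0.000779) and Plau (-0.25, adjusted p = 0.000412) averaged, and Mmp12 in the 12 h interaction (-1.98, adjusted p = 5.12e-05). Plaur at 24 h also passed with DESeq2 (adjusted p = 0.0323), and Timp2 averaged in all 3 TPM fits (0.0137 to 0.0189). Plau averaged also passed with upper-quartile factors (0.0424), 5 CPM in 3 libraries (0.037), DESeq2 (0.0335) and without KD control 3 (0.0477). Every other setting left Plaur at 24 h and the averaged Timp2 and Plau short of the threshold. Outside the block and single libraries left out, the lowest and highest all-gene counts were 748 and 1449 (NC at 24 h, 1211 in the test used), 263 and 651 (NC, 24 h against 12 h, 441), 1012 and 1766 (KD at 24 h, 1534), 433 and 848 (KD, 24 h against 12 h, 684), 157 and 475 (lines at control, 330), 103 and 388 (at 12 h, 256), 59 and 410 (at 24 h, 223), 980 and 1893 (averaged, 1598), 2 and 51 (interaction at 12 h, 12) and 1 and 38 (at 24 h, 5). The TPM scale moved the median of all genes by up to 0.18 or 0.21 (log2), by pseudocount, against at most 0.03 for other factors. By TPM library 2 was lowest for Plau in 0 of 6 groups, and by CPM in 6.

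The sign changed under an alternative for 11 of the 54 values not past the threshold, none of them past it there. Without 1 library the ranges were -0.0664 to 0.30 for Mmp12 (NC at 12 h), -0.0779 to 0.36 and -0.0543 to 0.40 for Adam8 (24 h against 12 h, NC and KD), -0.24 to 0.0212 for Plaur (KD, 24 h against 12 h), -0.0898 to 0.19 for Timp2 and -0.15 to 0.30 for Adam8 (lines at 12 h), -0.28 to 0.11 for Mmp9 and -0.13 to 0.31 for Adam8 (lines at 24 h), and -0.11 to 0.0485 for Mmp9 and -0.13 to 0.0251 for Adam8 (lines averaged). On log2(TPM + 1), with or without its filter, and log2(TPM + 0.1) Adam8 was at -0.0536 and -0.0555 (KD, 24 h against 12 h) and at 0.0465 and 0.0454 (lines averaged), and Mmp9 at 0.0309 and 0.0319 (lines at 24 h) and at 0.10 and 0.0935 (lines averaged). Without the libraries numbered 2 Plaur was at 0.0011 (KD, 24 h against 12 h), and Mmp9 at 0.0124 (lines averaged) and -0.0748 (interaction at 24 h). Low counts limit what can be read for Mmp14, Timp1 and, in KD, Thbs1, and why these counts are low was not tested.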

Other observations

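Mmp12 and Mmp13 belong to a run of metalloproteinase genes on chromosome 9. Between 7272514 and 7699585 (GRCm38), 9 of its genes are annotated as protein-coding in GENCODE M21, and only these were counted here. Only 3 of the 9 had 100 counts or more over the 18 libraries, Mmp13 with 3947, Mmp12 with 1566 and Mmp8 with 451, while Mmp10 had 40, Mmp3 had 28 and Mmp27 had 4. Mmp1b, Mmp7 and Mmp20 had none. The start of Mmp12 lies 71867 bases from that of Mmp13 and the start of Mmp8 285942 bases from it. By group mean, Mmp13 was highest in KD at 12 h (125 CPM), Mmp12 in the KD controls (52.8 CPM) and Mmp8 in KD at 12 h (11.3 CPM).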
